A study of Mus musculus with 12 samples.

Results

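The MHC class II antigen presentation genes were followed here as 8 genes, taken by symbol from the 24255 genes of the deposited expression table. They were H2-Aa, H2-Ab1 and H2-Eb1, which encode class II chains, Cd74, which encodes the invariant chain, H2-DMa, H2-DMb1 and H2-Oa, which encode chains of the peptide-editing proteins, and Ciita, which encodes the master regulator of class II transcription. RNA sequencing had been done on whole ovaries of 12 C57BL/6 mouse samples, all aged 6 months. Of these, 7 were wild type (WT) and 5 carried an oocyte-conditional knockout of Mtor driven by Gdf9-Cre (CKO), in which the recombinase is expressed from an oocyte promoter. Both groups had received 5 IU of eCG, a gonadotropin that drives follicle growth, 46 h before collection. Libraries are named by genotype and the number in their label, and 1 WT library whose column name matched more than 1 sample is called unnumbered. The labels name no animals, so each p-value reflects how far these libraries spread, which may be technical.

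Class II molecules are heterodimers of an alpha and a beta chain that display peptides from endocytosed protein to CD4+ T cells. The invariant chain occupies the peptide groove during assembly, endosomal proteases degrade it, and the DM heterodimer then exchanges the remaining fragment for antigenic peptide, a step that the DO heterodimer restrains. Class II is carried constitutively by dendritic cells, B cells and part of the macrophages, and interferon gamma can induce it in other cells through Ciita. In the ovary, macrophages and dendritic cells lie in the stroma, around follicles and in corpora lutea.

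Of the 8 genes, 6 lay in a 224 kb stretch of chromosome 17, between positions 34092340 and 34316674 (mm10), in the order H2-Oa, H2-DMa, H2-DMb1, H2-Ab1, H2-Aa and H2-Eb1. Ciita lay on chromosome 16, between 10480059 and 10528418. Class II promoters are known for a shared module, the X and Y boxes, which bind the RFX and NF-Y factors and through them CIITA. RefSeq promoters (GRCm38.p6, 250 bases before to 50 bases after each gene's start) were matched for 5 of the 8 genes, namely H2-Aa, H2-Eb1, H2-DMa, H2-DMb1 and H2-Oa. The module was searched as GNAAC, a spacer of 22 to 28 bases and TGATTGG, on both strands and with no overlap between the cores. The letters and the spacing were chosen after these promoters had been read. The sequences below show the module in 3 of the genes and in their neighbours H2-Ob and H2-Eb2, 5′ to 3′ on the strand of the gene, with the X core and the Y core in capitals.
H2-Aa (chr17:34287855-34287916, minus strand): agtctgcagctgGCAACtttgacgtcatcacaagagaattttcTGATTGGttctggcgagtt
H2-Eb1 (chr17:34305764-34305824, plus strand): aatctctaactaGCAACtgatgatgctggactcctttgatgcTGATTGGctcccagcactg
H2-Oa (chr17:34092291-34092352, plus strand): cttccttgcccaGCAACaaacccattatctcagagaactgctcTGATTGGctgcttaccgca
H2-Ob (chr17:34238806-34238864, plus strand): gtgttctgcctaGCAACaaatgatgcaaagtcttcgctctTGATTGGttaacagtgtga
H2-Eb2 (chr17:34325531-34325591, plus strand): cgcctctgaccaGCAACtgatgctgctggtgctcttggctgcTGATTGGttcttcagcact

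The module was present in 4 of the 5 matched genes, with spacers of 26 bases in H2-Aa, H2-DMb1 and H2-Oa and 25 bases in H2-Eb1. H2-DMb1 had GTAAC as its X core, and the others had GCAAC. The match of H2-DMb1 lies before the RefSeq start but inside the gene as GENCODE annotates it, and its sequence is not shown. The window shown for H2-Oa ends at 34092352, past the GENCODE start of that gene at 34092340. These letters were not found in the promoters of H2-DMa. The promoter of H2-DMb2, another neighbour that was searched, held TGATTGG but not the module. Over all 32851 promoters, the module was present in 0.219%, TGATTGG by itself or within it in 7.82% and GNAAC in 84.8%. A match describes the letters only and was not a test of binding.

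The libraries had like scales. The upper quartile of FPKM, a fragment count divided by transcript length and by the library's mapped fragments, was 12.9 to 13.2, and between 14945 and 16083 genes were above 0. Markers that define the ovary, such as Amh, Fshr and Gdf9, were above 0 in all 12 libraries in 10 of 10 cases, and 8 of the 10 were lower in CKO. Mtor itself was at 3.84 to 5.55 FPKM in WT and 4.63 to 5.88 FPKM in CKO, a log2 fold change of 0.08 ± 0.12 (SE, adjusted p = 0.709). Gdf9-Cre acts in oocytes, while the libraries hold whole ovaries. Oviduct transcripts stood apart in a pair of CKO libraries. Ovgp1, a secreted protein of the oviduct, was at 252 FPKM in CKO 2 and 81.9 FPKM in CKO 3, at 1.54 to 1.87 FPKM in the other CKO libraries and at most 1.45 FPKM in WT. Foxj1, of ciliated cells, was at 4.72 and 1.48 FPKM in the same libraries. Without CKO 2 and CKO 3, a fit added after the data were seen, the class II genes called were the 6 described in the results that follow. That fit called 941 genes higher and 714 lower in all, against 1145 and 999 with all libraries. The summed FPKM of 5 hemoglobin and heme genes was highest in CKO 5 (316), CKO 1 (276) and WT 1 (248) and at most 74.8 in the other libraries.

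Class II transcripts were higher in CKO ovaries, as a group. H2-Aa, H2-Ab1, H2-Eb1, Cd74, H2-DMa and H2-DMb1 rose, by 0.83 to 1.46 on the log2(FPKM + 1) scale, and none of the 8 genes fell. The 6 of 8 compare with 8.7% of the 13168 genes tested that were higher in CKO and 7.59% that were lower. All 8 genes passed the filter on low values, at least 1 FPKM in at least 5 of the 12 libraries. The 6 genes called passed it on WT values alone. Ciita and H2-Oa passed it only with CKO values, so that their values give no support to a rise of the group. For 4 of the 8, every CKO library lay above every WT library, against 4.09% of all genes tested, and for 0 of the 8 every CKO library lay below, against 3.65%. The median log2 fold change of the 8 genes, Ciita and H2-Oa included, was 1.27, and that of all genes tested was -0.01. More cells of a type and more RNA per cell cannot be told apart in whole tissue. The values by library are plotted for each gene.

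**Figure D1:**
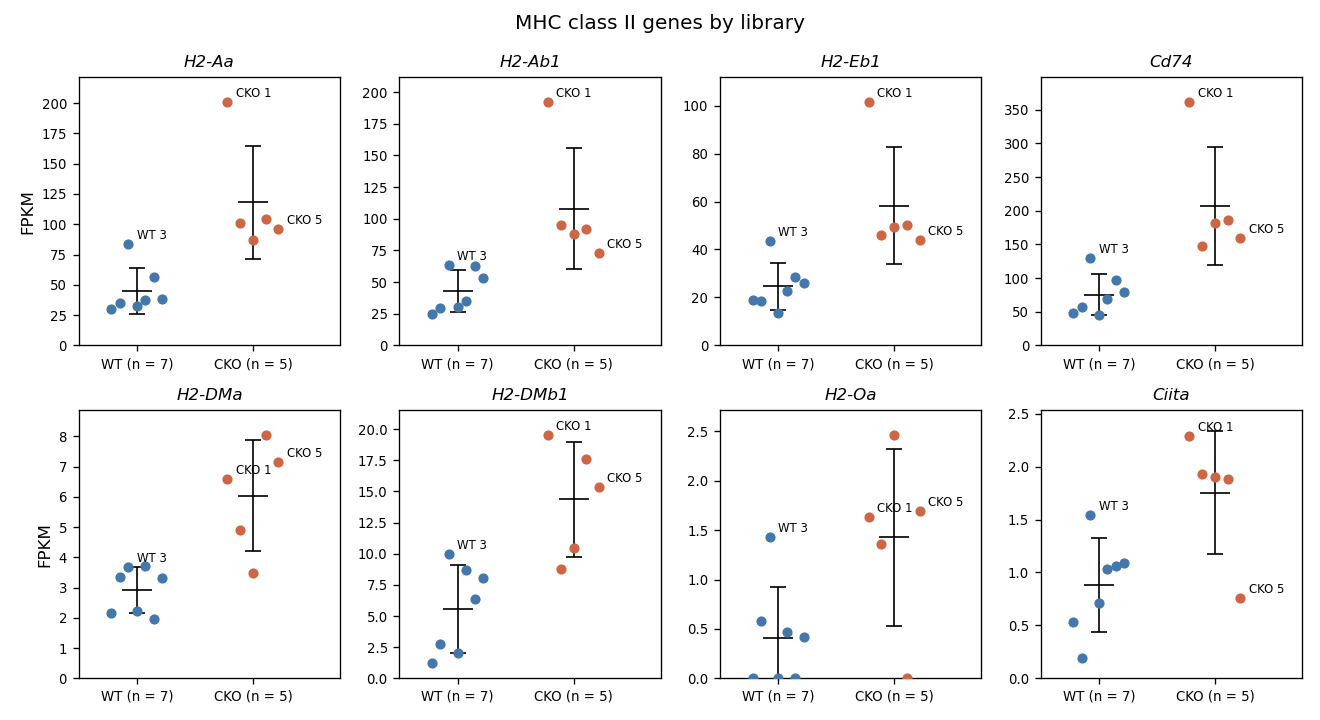
FPKM of the 8 class II genes in each library (y axis, linear from 0), for 7 WT (blue) and 5 CKO (orange) libraries, with the mean (long bar) and SD (error bar) of each group. The 4 upper genes show no overlap between the groups and a single high CKO library (CKO 1), and each of the 4 lower genes overlaps in at least 1 library.

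H2-Aa, the alpha chain of the I-A molecule, had FPKM between 30.3 and 83.7 in WT, with a median of 37.7. The CKO libraries 1 to 5 had 201, 101, 87.0, 104 and 96.0 FPKM. Every CKO library exceeded every WT library, although WT 3, the highest WT library, came close to CKO 3. The log2 fold change was 1.39 ± 0.25 (SE, adjusted p = 0.00229), and the group means were 44.9 ± 19.2 (SD, n = 7) and 118 ± 47.0 FPKM (SD, n = 5).

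H2-Ab1, the beta chain that pairs with it, ran from 24.9 to 63.8 FPKM in WT, with a median of 34.8. In CKO it was at 192, 94.7, 88.0, 91.7 and 73.1 FPKM in libraries 1 to 5. The groups did not overlap, but 3 WT libraries (WT 3, WT 7 and the unnumbered one) were clearly higher than the other 4. The log2 fold change was 1.32 ± 0.27 (SE, adjusted p = 0.00509). The 2 chains kept their proportion within the spread between libraries. The ratio of H2-Aa to H2-Ab1 in FPKM was 1.07 ± 0.20 (SD, n = 7) in WT and 1.11 ± 0.13 (SD, n = 5) in CKO.

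H2-Eb1 encodes the beta chain of the I-E molecule, whose alpha chain gene is inactive in C57BL/6 mice. In WT it lay between 13.7 and 43.6 FPKM with a median of 22.7, and the CKO libraries had 102, 46.2, 49.6, 50.1 and 43.9 FPKM. The lowest CKO library stood just above WT 3, so that the separation of the groups was narrow. The log2 fold change was 1.22 ± 0.26 (SE, adjusted p = 0.00534). The alpha chain pseudogene, H2-Ea-ps, was listed at 0 in all 12 libraries.

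Cd74, the invariant chain that occupies the groove, was the most abundant of the 8 genes, and its gene lies on chromosome 18. It ranged from 45.4 to 130 FPKM in WT, with a median of 68.8, and stood at 362, 147, 182, 186 and 160 FPKM in the CKO libraries. No CKO value fell into the WT range. Its log2 fold change, 1.46 ± 0.27 (SE, adjusted p = 0.00235), was exceeded by that of 1.07% of all genes tested. The ratio of Cd74 to H2-Aa in FPKM was 1.68 ± 0.22 (SD, n = 7) in WT and 1.76 ± 0.23 (SD, n = 5) in CKO.

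Part of the CKO mean of the 3 chains and Cd74 came from 1 library. Without CKO 1, the CKO mean of H2-Aa was 97.2 ± 7.57 FPKM (SD, n = 4) and that of Cd74 was 169 ± 18.6 FPKM (SD, n = 4). Without WT 3, the WT mean of H2-Aa was 38.4 ± 9.48 FPKM (SD, n = 6). The 4 genes kept their calls in each of the 12 fits that left out 1 library, with log2 fold changes between 1.00 and 1.61 and adjusted p up to 0.0127. They also kept them with CKO 1 and WT 3 left out together, a fit added after the data were seen.

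The peptide editors were at much lower levels per length than the chains. H2-DMa, the alpha chain of the DM editor, ran from 1.97 to 3.73 FPKM in WT with a median of 3.31. The CKO libraries had 6.58, 4.92, 3.50, 8.05 and 7.16 FPKM. CKO 3 lay inside the WT range and the other 4 CKO libraries lay above it. The log2 fold change was 0.83 ± 0.20 (SE, adjusted p = 0.0110).

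H2-DMb1, a beta chain of DM, was between 1.27 and 10.0 FPKM in WT, with a median of 6.34, and at 19.6, 8.78, 10.5, 17.6 and 15.4 FPKM in CKO. The WT libraries fell far apart, 3 of them under 3 FPKM and 4 above 6, and CKO 2 lay inside the WT range. The log2 fold change was 1.39 ± 0.39 (SE, adjusted p = 0.0240). The call was lost without CKO 1 (adjusted p = 0.0614), CKO 4 (0.0561) or CKO 5 (0.0532), with fold changes of 1.27, 1.31 and 1.36 on the log2 scale. Its value is uncertain, since 19.1% of the 1330 distinct stretches of 75 bases in its longest coding transcript also occur in the transcripts of H2-DMb2, a near copy, against 0 for the other 7 genes. H2-DMb2 was at 0 to 0.804 FPKM in WT, at 3.81 FPKM in CKO 1, at 0.827 FPKM in CKO 5 and at 0 in the other CKO libraries.

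H2-Oa, the alpha chain of the DO protein that restrains DM, was near the limit of detection. In 3 of the 7 WT libraries its value was 0, and it reached 1.43 FPKM in WT 3, and the CKO libraries had 1.63, 1.36, 2.46, 0 and 1.70 FPKM. The groups overlapped, with CKO 4 at 0, and the log2 fold change of 0.74 ± 0.31 did not pass the test (SE, adjusted p = 0.124). Without CKO 4 it was 1.04, with an adjusted p of 0.0193. From the smallest steps of the FPKM values, these levels correspond to about 0 to 5.44 fragments per library, and a 0 in such a table can be a failed estimate. The beta chain gene, H2-Ob, was between 0 and 1.30 in WT and between 0 and 1.66 in CKO (FPKM), too low for the test, and H2-Eb2 was at most 0.343 FPKM. The locus of H2-Oa in the table also holds BC051537, at most 0.665 FPKM, so that fragments could have been divided between the 2 genes.

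Ciita, the regulator, was also low. Its range was 0.193 to 1.55 FPKM in WT, with a median of 1.03, and the CKO libraries had 2.29, 1.93, 1.90, 1.88 and 0.755 FPKM. The CKO libraries 1 to 4 lay above every WT library, while CKO 5 lay below the WT median. The log2 fold change was 0.55 ± 0.22 (SE, adjusted p = 0.102), which did not pass the test, and 0.71 with an adjusted p of 0.0418 without CKO 5. At 2.08 to 42.3 fragments per library its values carry a large counting error, and a pseudocount of 1 FPKM understates the change of a gene at this level. The same limit holds for H2-DMa, at 8.37 to 40.5 fragments, and for the lower libraries of H2-DMb1, at 3.41 to 84.2. With a pseudocount of 0.1 the log2 fold change of H2-DMa was 1.01. In the authors' deposited table, q was 0.000599602 for H2-Aa, H2-Ab1, H2-Eb1, Cd74 and H2-DMb1. The authors' deposited table gave H2-DMa a q of 0.0263996 and both Ciita and H2-Oa a p and a q of exactly 1, beside log2 fold changes of 0.99 and 1.79, which cannot be read as the outcome of a test.

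The factors with which CIITA acts on class II promoters were not called higher in CKO. These are levels in whole ovaries, and their levels in the cells that carry class II were not tested. The 10 such genes tested were Rfx5, Rfxap, Rfxank, Nfya, Nfyb, Nfyc, Creb1, Ep300, Crebbp and Kat2b. Their median log2 fold change was -0.08. Limma called 0 of them higher and 1 lower, against 8.7% and 7.59% of all genes tested. At an unadjusted p under 0.05 it was 0 higher and 2 lower, and the exact Wilcoxon test called 0. The 1 lower gene was Crebbp, a histone acetyltransferase, at 4.13 to 6.13 FPKM in WT and 3.39 to 4.54 FPKM in CKO. Its log2 fold change was -0.41 ± 0.12 (SE, adjusted p = 0.0361). That call was lost whenever a library other than WT 2, CKO 2 or CKO 4 was left out (adjusted p up to 0.0854). Of 3 genes of class II turnover (March1, March8 and Sppl2a), limma called 0, the exact Wilcoxon test called 0, and 1 was higher at an unadjusted p under 0.05.

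The endosomal genes that prepare class II for peptide rose with it in part. Of 8, limma called 5 higher and 0 lower, against 8.7% and 7.59% of all genes tested. Their median was 0.93, and the counts were 7 and 0 at an unadjusted p under 0.05 and 4 and 0 by the exact Wilcoxon test. Ctss, the cathepsin that removes the invariant chain in antigen-presenting cells, showed the greatest change, from 15.3 to 43.8 FPKM in WT to 69.6 to 308 FPKM in CKO. Its log2 fold change was 2.18 ± 0.36 (SE, adjusted p = 0.00142), and the groups did not overlap. Ctsd, an aspartic protease, rose by 1.30 ± 0.20, Ctsb by 1.17 ± 0.15 and Ctsh by 1.01 ± 0.16 on the log2 scale (SE, adjusted p = 0.000998, 0.000404 and 0.00110). The groups did not overlap for these 3 either.

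Cst3, an inhibitor of cysteine cathepsins, rose by 0.41 ± 0.12 on the log2 scale (SE, adjusted p = 0.0379). That call was lost without WT 1, 2, 4 or 7 or CKO 1, 3 or 5 (adjusted p up to 0.0922). The 3 endosomal genes not called were Ctsl, Lgmn and Ifi30. Among 6 ligands of T cell costimulation and inhibition, 4 were tested and 2 were higher, against 8.7% of all genes tested. Cd274, which encodes the inhibitory ligand PD-L1, ran from 0.889 to 2.89 in WT and from 3.35 to 6.65 in CKO (FPKM), a log2 fold change of 1.07 ± 0.22 (SE, adjusted p = 0.00425). Cd86, a costimulatory ligand, rose by 0.99 ± 0.25 (SE, adjusted p = 0.0141).

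**Figure D2:**
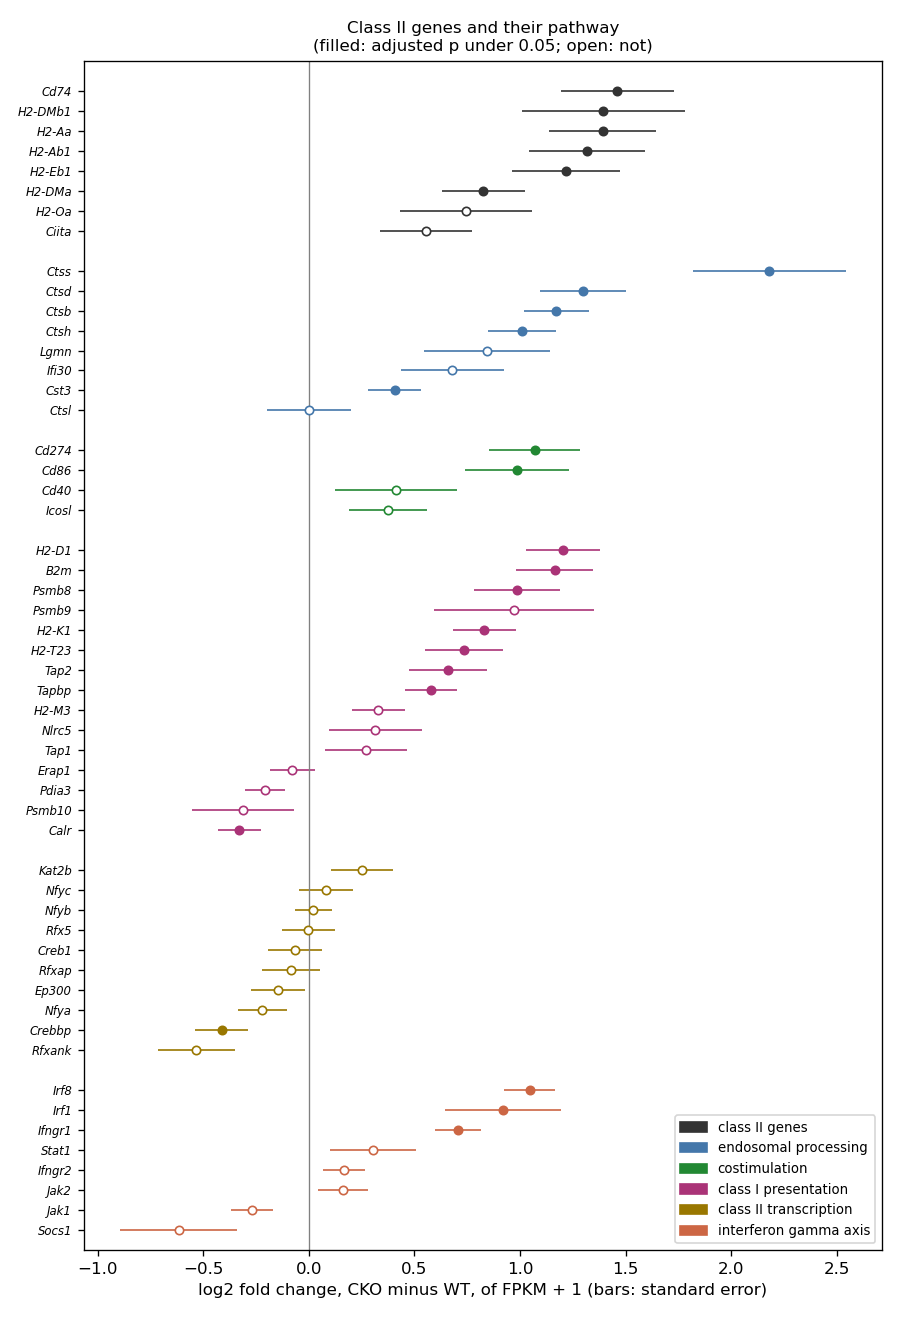
Log2 fold change of FPKM + 1, CKO minus WT (x axis, bars are standard errors), of the 8 class II genes and the tested genes of 5 related lists, with filled points for an adjusted p under 0.05. The class II genes lie between 0.55 and 1.46, the transcription factors around 0 with a median of -0.08, and Ctss stands farthest right at 2.18.

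Class I presentation, which shows peptides from the cytosol to CD8+ T cells, was also higher in CKO in part. Of 15 genes, 7 were higher and 1 lower, against 8.7% and 7.59% of all genes tested. The median log2 fold change of the 15 was 0.58. H2-D1, a class I heavy chain, rose by 1.20 ± 0.17 and B2m, the light chain of class I, by 1.16 ± 0.18 (SE, adjusted p = 0.000621 and 0.000998). Psmb8, a subunit of the immunoproteasome, rose by 0.99 ± 0.21 and H2-K1 by 0.83 ± 0.15 (SE, adjusted p = 0.00514 and 0.00214). The ratio of H2-Aa to B2m in FPKM overlapped between the groups, at 0.0549 to 0.144 in WT and 0.0743 to 0.125 in CKO.

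Psmb8 also lies among the class II genes on chromosome 17. In the span from H2-Oa to H2-Eb1 the table held 14 genes, and of the 8 that were not among the class II genes studied 5 were tested. Of these, 2 were higher, Psmb8 and Tap2 (log2 fold change 0.66 ± 0.18, SE, adjusted p = 0.0257), both of class I presentation. Brd2, a chromatin reader between H2-Oa and H2-DMa, was not called, at -0.19 ± 0.08 (SE, adjusted p = 0.138). Tap2 and Brd2 were named after their values had been seen. Among genes with the X and Y module in their promoter, 35 were tested and 4 were lower. Of the 35, 11.4% were higher, namely H2-Aa, H2-Eb1, H2-DMb1 and BC051142 (named after its value had been seen), against 8.7% of all genes tested. Without the 4 class II genes among the 35 it was 3.23%. The share lower over all genes tested was 7.59%. The module was chosen after the class II promoters had been read, so that these counts give no support to a link with it.

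Of 9 genes of the interferon gamma pathway, which induces Ciita, 8 were tested and 3 were higher, against 8.7% of all genes tested. The median log2 fold change of the 8 was 0.23. Irf8, a transcription factor of macrophages and dendritic cells, ran from 9.28 to 16.6 in WT and from 25.3 to 28.8 in CKO (FPKM), a log2 fold change of 1.05 ± 0.12 (SE, adjusted p = 0.000238). Ifngr1, the receptor chain that binds the ligand, rose by 0.71 ± 0.11 (SE, adjusted p = 0.000961). Irf1, a target of the pathway, rose by 0.92 ± 0.27 (SE, adjusted p = 0.0344), a call lost without WT 1 or 4 or CKO 1 or 4 (adjusted p up to 0.0916). Jak1, the kinase at the receptor, was at -0.27 ± 0.10 (SE, adjusted p = 0.0811). Ifng itself was listed at 0 in 6 WT and 3 CKO libraries, and its highest value was 1.52 FPKM, in CKO 2.

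On the T cell side, Cd4, the coreceptor that binds class II and is also found on macrophages, showed no overlap. It was at 0.587 to 1.46 FPKM in WT and at 3.47 to 8.28 FPKM in CKO (log2 fold change 1.83 ± 0.20, SE, adjusted p = 0.000212). Cd3e, a chain of the T cell receptor complex, ran from 0.559 to 1.47 in WT and from 1.15 to 5.80 in CKO (FPKM), a log2 fold change of 0.99 ± 0.25 (SE, adjusted p = 0.0147). Of the 7 genes in that list 4 were tested, and Cd28 and Lag3 were not called, at -0.24 ± 0.37 and 0.13 ± 0.29 on the log2 scale (SE, adjusted p = 0.720 and 0.807).

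Markers of the cells that carry class II were compared beside it. Among those tested, limma called 9 of 12 macrophage markers higher, 4 of 8 dendritic cell markers, 1 of 3 B cell markers, 2 of 6 T cell markers and 4 of 5 pan-leukocyte markers. Of all genes tested, 8.7% were called higher. The 9 macrophage and 4 pan-leukocyte markers, and the 6 class II genes called, passed the filter on their WT values alone. The 4 dendritic cell markers (Ccr7, Cd209a, Itgax and Xcr1), Cd22, Cd4 and Cd3e, like Cd86 among the ligands, passed it only with CKO values, so that their calls give no support. The 4 dendritic cell markers that passed on WT values alone (Zbtb46, Clec9a, Clec10a and Batf3, named after their values had been seen) were not called. Limma called 0 markers lower, as did the exact Wilcoxon test, and 0 were lower at an unadjusted p under 0.05. The summed FPKM ran from 305 to 1082 in WT and from 872 to 1805 in CKO for the macrophage markers. For the dendritic cell markers it was 18.2 to 27.7 in WT and 27.6 to 37.7 in CKO, and for the pan-leukocyte markers 46.8 to 211 and 185 to 374. It was 18.6 to 29.0 and 32.1 to 55.7 for the T cell markers and 2.91 to 8.01 and 4.73 to 12.4 for the B cell markers. The largest part of the T cell sum was Thy1, with a median of 16.2 FPKM in WT and 21.9 FPKM in CKO. The medians of that sum were 24.1 and 39.1 FPKM. Thy1 overlapped between the groups and was not called (adjusted p = 0.0552). Of the 6 T cell markers tested, 4 passed the filter only with CKO values, and the T cell sum was not tested. Among B cell markers Pax5 was listed at 0 in all 12 libraries, and Cd22, found on B cells but also on other leukocytes, was the 1 higher gene (0.93 ± 0.24, SE, adjusted p = 0.0178). It was lost without CKO 1 or CKO 5 (adjusted p = 0.0517 and 0.0514). Among dendritic cell markers Flt3 was at most 0.102 FPKM in WT and 0.864 FPKM in CKO. With CKO 1 and CKO 5 left out, the 20 higher markers of these 5 lists became 9, and the 6 class II genes became 4, without H2-DMa and H2-DMb1 (adjusted p = 0.0899 and 0.139). That fit was added after the data were seen. Over all genes tested it called 702 higher and 673 lower, against 1145 and 999 with all libraries.

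H2-Aa was also set against 3 leukocyte transcripts. Ptprc, which encodes the pan-leukocyte surface protein CD45, was at 2.12 to 10.7 FPKM in WT and 7.05 to 12.4 FPKM in CKO (log2 fold change 1.03 ± 0.28, SE, adjusted p = 0.0212). That call too was lost without CKO 1 or CKO 5 (adjusted p = 0.0587 and 0.0531). The ratio of H2-Aa to Ptprc in FPKM had a median of 14.2 in WT (3.52 to 22.1) and 14.1 in CKO (9.20 to 16.2). The ratio of H2-Aa to Csf1r, the receptor of the macrophage growth factor, was 3.78 to 8.97 in WT and 5.98 to 11.7 in CKO. The ratio to Cd68, a lysosomal macrophage protein, was 1.90 to 4.95 in WT and 0.980 to 2.84 in CKO, with the higher median in WT. All 3 ratios overlapped between the groups and were not tested.

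With the level of Ptprc as a covariate, limma called 0 of the 8 class II genes at the adjusted threshold and 5 higher at an unadjusted p under 0.05. The log2 fold changes of H2-Aa, H2-Ab1, H2-Eb1 and Cd74 were then 1.15, 1.11, 1.00 and 1.18 (adjusted p = 0.135, 0.182, 0.199 and 0.142). That fit called 103 higher and 82 lower genes in all, against 1145 and 999 without the covariate. Immediate-early genes, which respond to handling of tissue, were also higher, 5 of 9, against 8.7% of all genes tested. Their summed FPKM was 379 to 2077 in WT and 1492 to 6550 in CKO. With their mean as a covariate, added after the data were seen, limma again called 0 of 8, with 5 at an unadjusted p under 0.05. Over all genes tested this fit called 454 higher and 372 lower. The log2 fold changes of the same 4 genes were 0.94, 0.99, 0.92 and 1.08 (adjusted p = 0.0625, 0.0998, 0.103 and 0.0614). The part of leukocyte number and of tissue handling in the result was not tested.

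**Figure D3:**
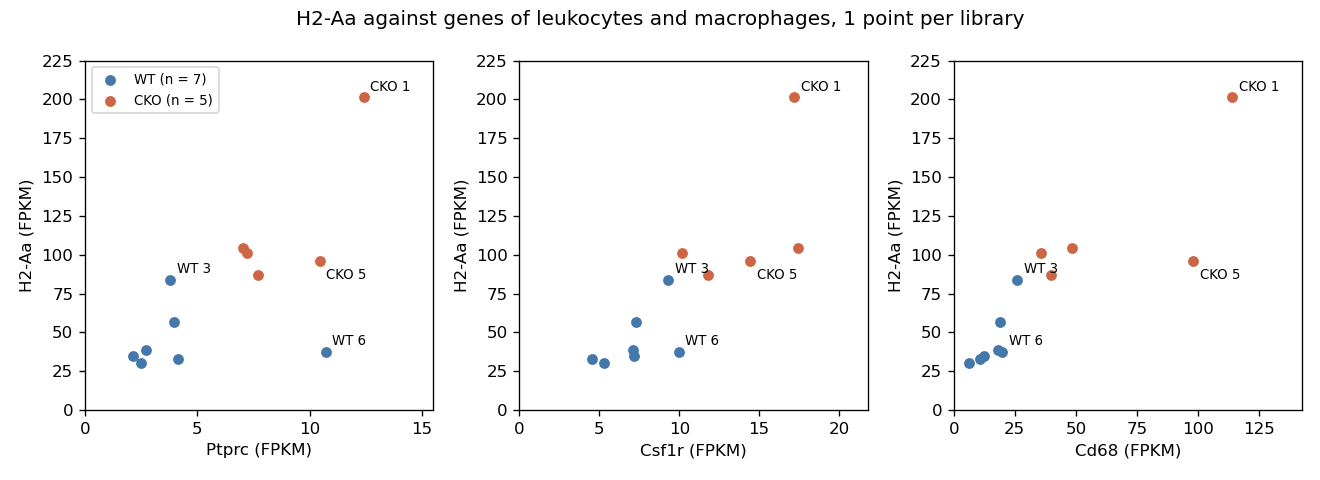
H2-Aa (y axis, FPKM) against Ptprc, Csf1r and Cd68 (x axes, FPKM), 1 point for each of 7 WT (blue) and 5 CKO (orange) libraries. WT 6, with Ptprc at 10.7 FPKM, has H2-Aa at 37.7 FPKM, and CKO 5, with Cd68 at 98.0 FPKM, has H2-Aa at 96.0 FPKM.

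In some libraries the class II genes and the leukocyte markers differed in rank. WT 6 had Ptprc at 10.7 FPKM and C1qa, a complement component of macrophages, at 310 FPKM, the highest WT values of both. H2-Aa in WT 6 was 37.7 FPKM, the WT median, while H2-DMa (3.73 FPKM) was the highest of WT and H2-DMb1 (8.66 FPKM) was exceeded only in WT 3. CKO 5 had the next highest Cd68 (98.0 FPKM) after CKO 1, but the lowest H2-Ab1 and Ciita of the CKO libraries (73.1 and 0.755 FPKM). Its H2-DMa (7.16 FPKM) was exceeded among CKO libraries only in CKO 4. WT 3, with the highest H2-Aa, H2-Ab1, H2-Eb1 and Cd74 of WT, had Ptprc at 3.79 FPKM, the WT median.

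Variation within the genotypes was described by Pearson's r of log2(FPKM + 1) after each genotype's mean was subtracted, over 12 libraries that are each a mixture of the same tissue's cells. The 3 chains and Cd74 moved together, with r from 0.89 to 0.98 in 6 pairs. The other 22 pairs had r from -0.03 to 0.78. Against the mean of the 8 genes, of which each is a part, H2-DMb1 had r = 0.86, Ciita 0.70, H2-Oa 0.46 and H2-DMa 0.40. The 2 DM chains differed in this respect, and the ratio of H2-DMb1 to H2-DMa in FPKM ran from 0.582 to 3.22 in WT and from 1.79 to 2.99 in CKO.

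**Figure D4:**
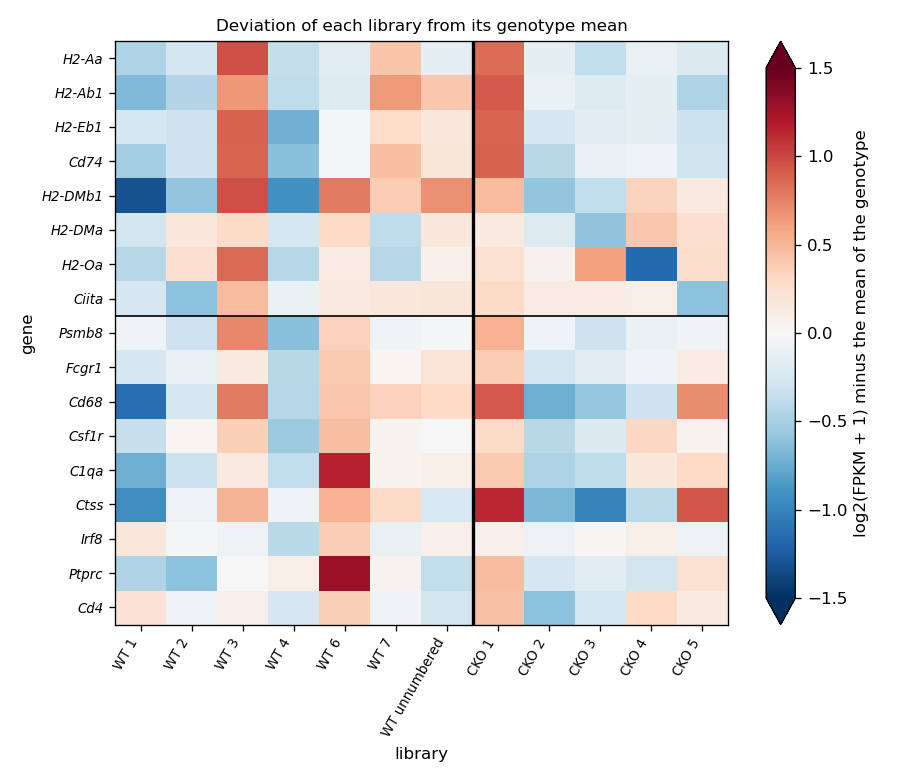
Log2(FPKM + 1) of each library minus the mean of its genotype (color, blue below and red above), for the 8 class II genes and 9 other genes (rows) in 12 libraries (columns, WT left and CKO right of the thick line). The 3 chains and Cd74 are high in WT 3 and CKO 1, whereas Ptprc and C1qa are highest in WT 6 among the WT libraries.

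The 10 genes outside the group whose deviations were most like the mean of the 8 were Olfml3 (r = 0.90), A530099J19Rik (0.89), Dram1 (0.86), Psmb8 (0.85), Fcgr3 (0.85), Rrnad1 (0.85), Aarsd1 (0.85), Rab3il1 (0.84), Cd300ld (0.84) and Tasp1 (0.84). Of these, 7 were higher in CKO, against 8.7% of all genes tested, and Rrnad1, Aarsd1 and Tasp1 were not called. A530099J19Rik passed the filter on low values only with CKO values, so that its call gives no support. Olfml3, a secreted protein gene, ran from 32.7 to 63.2 in WT and from 80.3 to 125 in CKO (FPKM), a log2 fold change of 0.95 ± 0.16 (SE, adjusted p = 0.00176). Fcgr3, an Fc receptor of macrophages and natural killer cells, ran from 15.6 to 36.0 in WT and from 52.1 to 123 in CKO (FPKM), a log2 fold change of 1.69 ± 0.25 (SE, adjusted p = 0.000708). The groups did not overlap for these 2 genes. The calls of A530099J19Rik and Cd300ld rested on single libraries: the first was lost without WT 1 or 4 or CKO 1 or 4 (adjusted p up to 0.0830), the other without CKO 1 or 5 (up to 0.0668).

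Over whole lists, the mean deviation of the macrophage markers had r = 0.71 with that of the 8 class II genes, that of the dendritic cell markers 0.69 and that of the pan-leukocyte markers 0.59. It was 0.76 for the 3 tested B cell markers, 0.29 for the T cell markers, 0.43 for the immediate-early genes and 0.11 for the blood genes. The 3 B cell markers (Cd79a, Cd79b and Cd22) lay at 0 to 5.50 FPKM and passed the filter on low values only with CKO values. Singly they had r = 0.31, 0.43 and 0.66. Among single genes, r was 0.81 for Cd68 and 0.73 for Csf1r. It was 0.36 for Ptprc and 0.19 for Irf8, although Irf8 did not overlap between the genotypes. These values describe 12 libraries and were given no test.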

How the data were processed

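Polyadenylated RNA of 12 whole ovaries was sequenced in pairs, and per the labels the authors aligned trimmed reads to mm10 (TopHat2 2.0.13) and computed FPKM with Cufflinks 2.2.1. Strand use and gene annotation are unstated in the sources at hand. The authors' deposited table also holds Cuffdiff's p-value and q-value and a log2 fold change, used only where that table is named, and its fold changes equal CKO over WT for the 8 genes. Columns were mapped to samples by name.

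Values were tested as log2(FPKM + 1) with limma 3.58.1 in R 4.3.3 (trended empirical Bayes, a model with genotype alone, two-sided). Adjustment was by Benjamini-Hochberg over the 13168 genes at 1 FPKM or more in at least 5 libraries, with a threshold of 0.05. Every adjusted p in the text comes from limma unless the exact Wilcoxon test is named. The script was tested on simulated data. FPKM are not counts, and depth is not given. The value of 1 fragment per kilobase, 0.326 to 0.678 FPKM, was taken from genes with 1 annotated transcript that were above 0 in a single library. It rests on 12 to 36 genes a library, so fragment numbers are rough. No 2 libraries were duplicates (highest correlation 0.971).

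The 8 genes and the lists were chosen with earlier results of these data known. Named were the 8 genes, the called or near-absent genes of the lists closest to class II, the 4 genes of lowest p in each other list, the 10 genes most like the 8, and markers that touch a library. Alternatives changed the pseudocount, filter, scaling, weights, test, covariate, block and libraries. The likeness of genes was described without a test. Some items are not reported here.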

Additional observations from a re-analysis of the deposited data

Results flagged for a closer look

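In the 16 sets of values given by the 8 class II genes and the 2 genotypes, 6 had a library whose gap to its nearest neighbour was large against the range of its group. Chance gives this in about 1 of 20 groups, and the 8 genes share their libraries. CKO 1 stood above the other CKO libraries in H2-Aa (201.288 FPKM), H2-Ab1 (192.444 FPKM), H2-Eb1 (101.726 FPKM) and Cd74 (362.086 FPKM). CKO 5 stood below the other CKO libraries in Ciita (0.755334 FPKM). WT 3 stood above the other WT libraries in H2-Oa (1.42822 FPKM).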

How the results depend on the processing

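The count of class II genes called was 6, and 5 to 6 when 1 library was left out, and the counts for the related pathway lists and the cell markers were 21 (16 to 24) and 20 (18 to 23). With Ptprc as a covariate they became 0, 2 and 1. With the immediate-early mean as a covariate they became 0, 12 and 2. Over all genes tested these 2 fits called 103 and 454 higher and 82 and 372 lower, against 1145 higher and 999 lower without a covariate. The cell markers called were also 12 at a filter of a mean of 5 FPKM, where fewer were tested, 11 by the exact Wilcoxon test and 9 without CKO 1 and 5. Among the other alternatives each of the 3 counts stayed within 1.5 times. Over 54 named genes and their alternatives, 1296 of 1489 comparisons kept direction and call, 165 lost the call, 12 gained it and 16 changed sign. The sign changes were in genes not called. Log2 fold changes were as follows. Lag3 had -0.0673 with a pseudocount of 0.1, -0.0575 with the Ptprc covariate, -0.002512 without CKO 2 and -0.005151 without CKO 3, -0.23 without CKO 2 and 3, and up to 0.35 without any other 1 library. Cd79b had -0.76 with the Ptprc covariate. Cd79a had -0.05 without the unnumbered WT library, -0.10 without CKO 1 (up to 0.22 without any other 1 library), -0.003394 without CKO 1 and 5, -0.02 without CKO 1 and WT 3 and -0.48 with the immediate-early covariate. Tasp1 had -0.19 with the Ptprc covariate, -0.0164 without CKO 1 and 5 and -0.19 with the immediate-early covariate. The cause was not tested.

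Scaling each library to 1 common sum moved the median of all genes to -0.10 and the calls to 829 higher and 1433 lower, from 1145 and 999, with the 6 class II genes still called. The exact Wilcoxon test called 749 higher and 676 lower. Samples of the same number were not related (r from -0.07 to 0.09 over 4 pairs). The replicate block on those libraries called 5 class II genes, 18 pathway genes and 16 markers, without H2-DMa, and the same libraries with no replicate block called 5, 18 and 19. Over all genes tested the block called 756 higher and 622 lower, and the fit with no block 901 and 707. Aarsd1 had 0.0435 in both. H2-DMa was also lost by the exact Wilcoxon test. Levels of Ciita and H2-Oa rest on few fragments, as do those of H2-DMa and H2-DMb1 in some libraries. The calls of Ciita and H2-Oa depended on CKO 5 and CKO 4. The order of the 8 fold changes depended on the pseudocount, since at 0.1 H2-Oa had 1.71, H2-DMb1 1.62 and Cd74 1.47.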
